A study of Mus musculus with 2 samples.

Results

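The Notch receptors Notch1, Notch2 and Notch3, their ligands Dll1, Dll3, Jag1 and Jag2, and the nuclear factors Hes1, Hes5 and Hes6 were examined in the embryonic mouse hindbrain. These 10 genes were taken by name from 43346 genes in the deposited tables, with gene identifiers matched to GENCODE mouse symbols. Total RNA was sequenced from hindbrains of strain B6NCrl at 14.5 days of embryonic age, and no treatment or allele is named in the labels. Each of 2 libraries came from 1 hindbrain of 1 pup. The pups were collected on different dates, so replicate and collection date cannot be told apart. The labels also give the sex of each sample as pooled and the same donor identifier to both, so only the pup and date entries place them in separate embryos. Each library was made from 10 ng of RNA longer than 200 nt, with spike-in RNAs added. All samples form 1 group, so the data give levels, their spread over 2 replicates and differences between 2 libraries, and no condition was compared.

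Notch receptors are cut after they bind a ligand on a neighbouring cell, and the freed intracellular part joins the DNA-binding protein Rbpj in the nucleus to switch on targets such as Hes1 and Hes5. Hes1 and Hes5 repress proneural genes and keep neural progenitors from becoming neurons, while the ligands Dll1 and Dll3 are made by cells that start to become neurons. Hes6 is the atypical member: it is a feature of differentiating neurons and is known to oppose Hes1.

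The 3 Hes proteins share a C-terminal tryptophan-arginine-proline-tryptophan motif that recruits Groucho/TLE corepressors. The end of each coding sequence is shown because all 3 genes encode this motif there. The last 10 codons and the stop codon are given for the most abundant transcript of each gene, 5′ to 3′ on the coding strand, from GENCODE M21 transcripts (GRCm38). Capitals mark the 4 motif codons.
Hes1-201: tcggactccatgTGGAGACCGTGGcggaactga
Hes5-201: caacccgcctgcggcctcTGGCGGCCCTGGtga
Hes6-201: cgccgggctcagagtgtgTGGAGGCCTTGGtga
The motif ended the protein in Hes5 (codons 164 to 167 of 167) and Hes6 (codons 221 to 224 of 224), and 2 codons followed it in Hes1 (codons 277 to 280 of 282). Of its 12 bases, 3 differed between Hes1 and Hes5, 2 between Hes1 and Hes6 and 2 between Hes5 and Hes6.

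The bases before the start site were searched for the core GTGGGAA of the Rbpj site, through which Notch acts, and for the N box CACNAG, which Hes repressors are known to bind. The RefSeq table (GRCm38.p6) held 11 windows for 9 of the 10 genes, and Hes1 was not matched. Each search covered the 250 bases before a start site on both strands, and no match of one motif overlapped one of the other. The Rbpj core occurred in 1 of the 11 windows, that of Hes5, with 2 matches, at 226 and 83 bases before the start site and on opposite strands. Of 32851 windows of the same length, 5.415% held the core and 0.1613% held it 2 or more times. The N box occurred in 4 windows, of Hes6, Notch1, Notch2 and Notch3, against 36.67% of all windows. The Hes5 window is shown for its paired core matches, and the Hes6 window because it lies before the start site of the most abundant transcript of the most abundant gene. Capitals mark the core in Hes5 (chr4:154960673-154960922, plus strand) and the N box in Hes6 (chr1:91413223-91413472, minus strand). A match describes letters and does not show binding.
Hes5: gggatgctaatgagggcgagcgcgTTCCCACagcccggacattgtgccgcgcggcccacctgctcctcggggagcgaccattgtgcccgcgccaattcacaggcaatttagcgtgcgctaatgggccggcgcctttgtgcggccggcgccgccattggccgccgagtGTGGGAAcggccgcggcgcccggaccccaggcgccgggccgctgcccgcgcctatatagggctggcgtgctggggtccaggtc
Hes6: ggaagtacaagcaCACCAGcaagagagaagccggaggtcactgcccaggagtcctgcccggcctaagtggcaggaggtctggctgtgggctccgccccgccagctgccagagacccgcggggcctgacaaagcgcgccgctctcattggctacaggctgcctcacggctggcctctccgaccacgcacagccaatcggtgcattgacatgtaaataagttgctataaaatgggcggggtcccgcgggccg

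Expected counts, which are estimated reads per feature and need not be whole, totalled 34929425 in replicate 1 and 33510896 in replicate 2. For a gene without counts the upper limit was 0.0889 and 0.0924 CPM, which is 3 counts of the 33727967 and 32450651 assigned to genes. This limit and the intervals on count ratios cover counting error only, because the labels name no molecular identifiers and several reads can come from 1 molecule. Levels were compared as TPM, which corrects for transcript length and library total, so genes can be ordered by it. Spike-ins took 8.15% and 7.72% of TPM in replicates 1 and 2. Of the tissue markers, 8 of 8 hindbrain genes and 1 of 6 forebrain genes (Lhx2, at 10.4 and 15.1 TPM, named after its values were seen) reached 1 TPM in both replicates.

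All 10 genes reached 1 TPM in both replicates, against 34.8% of all 43346 genes. Summed over each role, the receptors stood at 37.9 ± 1.67 TPM, the ligands at 45.6 ± 2.53 TPM and the Hes genes at 182.6 ± 20.6 TPM (SD, n = 2). Hes6 alone exceeded the receptor and ligand sums together in both libraries. It was higher than 89.0% of the detected genes, whereas Notch3, the lowest of the 10, was higher than 29.7%. In these bulk samples, more cells of a type and more RNA per cell cannot be told apart.

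**Figure D1:**
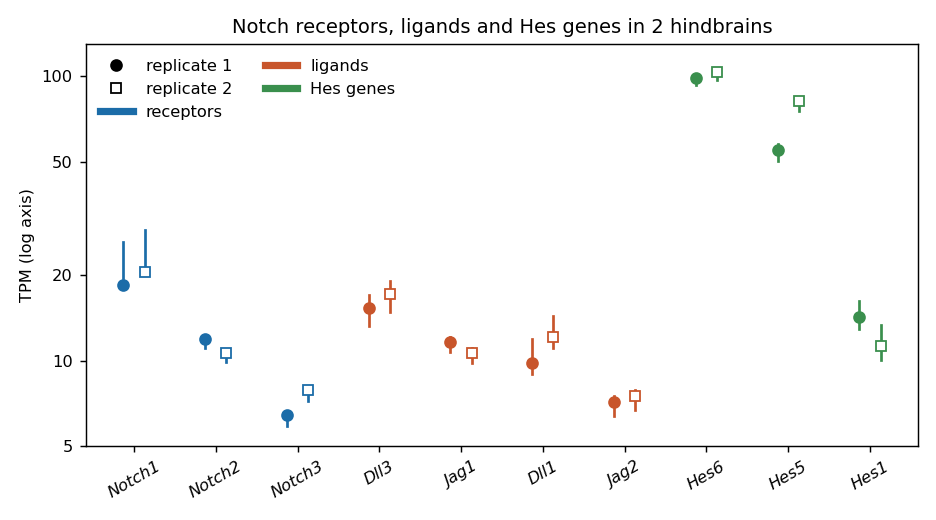
Levels of the 10 genes in TPM on a log axis, with replicate 1 as filled circles, replicate 2 as open squares and vertical lines for the deposited credibility interval. Hes6 and Hes5 lie above 50 TPM in both libraries and the other 8 genes between 6.42 and 20.5 TPM.

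Notch1 was the most abundant receptor. Notch1 (ENSMUSG00000026923.11, chr2:26457903-26516663, minus strand), the receptor best known in neural progenitors, had 18.4 TPM in replicate 1 and 20.5 TPM in replicate 2 (19.5 ± 1.51 TPM, n = 2), from 3401.76 and 3350.45 expected counts. Its deposited TPM lay just below its own credibility interval in each library, which ran from 19.5 to 26.2 TPM and from 20.8 to 28.7 TPM. The posterior mean, another deposited estimate that lies inside the interval, was 22.6 and 24.6 TPM, so the level of Notch1 depended on the estimate used.

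Notch2 (ENSMUSG00000027878.10, chr3:98013527-98150361, plus strand), a second progenitor receptor, had 11.9 and 10.6 TPM (11.2 ± 0.877 TPM), from 2640 and 2161 expected counts. Notch3 (ENSMUSG00000038146.7, chr17:32120820-32166852, minus strand), which is also the receptor of vascular mural cells, had 6.42 and 7.89 TPM (7.16 ± 1.04 TPM), from 1089.98 and 1224.49 expected counts. The 3 receptors kept the order Notch1, Notch2, Notch3 in both libraries, with credibility intervals apart at each step. Notch1 stood 1.55-fold and 1.93-fold above Notch2 in replicates 1 and 2, and Notch2 stood 1.85-fold and 1.35-fold above Notch3. Of the summed receptor TPM, Notch1 held 51.3% ± 1.71, Notch2 29.8% ± 3.63 and Notch3 18.9% ± 1.91. The 6 markers of pericytes and mural cells, all above 1 TPM, summed to 70.3 and 70.9 TPM, and their part in the Notch3 level was not tested.

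By gene TPM, summed over its transcripts, Dll3 was the most abundant ligand. Its most abundant transcript, Dll3-201, had 10.7 and 12.8 TPM, against 10.8 and 10.5 TPM for Jag1-201. By these transcripts alone, Dll3 was above Jag1 in replicate 2 only. Dll3 (ENSMUSG00000003436.11, chr7:28293553-28302238, minus strand), a divergent ligand known to act inside the cell that makes it, had 15.3 and 17.1 TPM (16.2 ± 1.32 TPM), from 631 and 680 expected counts. Jag1 (ENSMUSG00000027276.7, chr2:137081456-137116644, minus strand), a ligand of the Serrate class, had 11.6 and 10.6 TPM (11.1 ± 0.700 TPM). Dll1 (ENSMUSG00000014773.9, chr17:15367354-15376872, minus strand), which activates Notch on neighbouring progenitors, had 9.80 and 12.2 TPM (11.0 ± 1.66 TPM).

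Jag1 exceeded Dll1 in replicate 1, and Dll1 exceeded Jag1 in replicate 2, so gene TPM gave them no order. Their most abundant transcripts, both protein coding, kept 1 order. Jag1-201 had 10.8 and 10.5 TPM and Dll1-201 7.40 and 8.61 TPM, with credibility intervals apart in each library. Jag2 (ENSMUSG00000002799.5, chr12:112907819-112929776, minus strand), the other Serrate-class ligand, was the lowest at 7.14 and 7.49 TPM (7.32 ± 0.247 TPM). Dll3 held 35.5% ± 0.930 of the summed ligand TPM, Jag1 24.5% ± 2.89, Dll1 24.0% ± 2.31 and Jag2 16.0% ± 0.348. By gene TPM the Delta-class pair Dll1 and Dll3 exceeded the pair Jag1 and Jag2 by 1.34-fold in replicate 1 and 1.62-fold in replicate 2. In the most abundant transcripts, Dll3-201 had 10.7 and 12.8 TPM and Jag2-201 7.14 and 7.49 TPM, beside Jag1-201 and Dll1-201 above. Part of the excess therefore lay in other transcripts of Dll1 and Dll3.

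Hes6 and Hes5 were the highest of the 10 genes. Hes6 (ENSMUSG00000067071.4, chr1:91411483-91414038, minus strand) had 98.7 and 103.8 TPM (101.2 ± 3.62 TPM), from 2656 and 2554 expected counts. Hes5 (ENSMUSG00000048001.7, chr4:154960923-154962371, plus strand), the Notch target with the paired core matches printed above, had 55.1 and 82.1 TPM (68.6 ± 19.1 TPM), from 1257.14 and 1732.26 expected counts. Hes1 (ENSMUSG00000022528.7, chr16:30064384-30067796, plus strand) had 14.2 and 11.3 TPM (12.8 ± 2.09 TPM), from 403 and 280 expected counts.

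The levels of the 3 Hes genes did not overlap between genes, and the order Hes6, Hes5, Hes1 held in both libraries. The gaps between them differed. Hes5 stood 3.86-fold above Hes1 in replicate 1 and 7.27-fold in replicate 2, whereas Hes6 stood 1.79-fold and 1.26-fold above Hes5. Hes6 held 58.7% and 52.6% of the summed Hes TPM, Hes5 32.8% and 41.6%, and Hes1 8.48% and 5.73%.

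**Figure D2:**
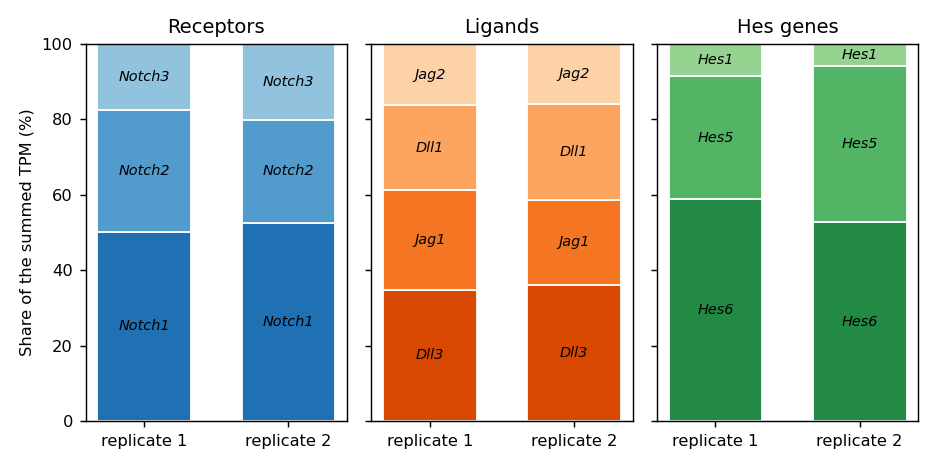
Share of the summed TPM of each role, in percent, held by each gene in replicates 1 and 2. Notch1, Dll3 and Hes6 hold the largest share of their role in both libraries, and the Hes5 share is 32.8% in replicate 1 and 41.6% in replicate 2.

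Over all 10 genes the order of mean levels was Hes6, Hes5, Notch1, Dll3, Hes1, Notch2, Jag1, Dll1, Jag2 and Notch3. Neighbours overlapped over the replicates for Hes1 and Notch2, Notch2 and Jag1, Jag1 and Dll1, and Jag2 and Notch3. Of these 4 pairs, the last 3 changed order between the libraries. The other 5 neighbouring pairs did not overlap, though the credibility intervals of Dll3 and Hes1 did so in at least 1 library.

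The libraries were then compared with each other. An exact two-sided binomial test set the rounded expected counts of replicate 2 against those of replicate 1, scaled by the total over genes, with Benjamini-Hochberg adjustment over the 17664 genes whose mean count was 10 or more. It compares these libraries with counting noise, not conditions, and what it finds may be technical. Hes5 and Notch3 were higher in replicate 2, Hes1 and Notch2 were lower, and the other 6 genes were not called. Over all genes tested 33.9% were called, 15.6% higher and 18.3% lower, so 4 of 10 is near the share among all genes. The median log2 ratio of TPM + 1 was 0.11 over the 10 genes and 0.04 over all genes tested.

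Hes5 differed the most, with scaled counts 1.43-fold higher in replicate 2 (95% interval 1.33 to 1.54, exact binomial test, adjusted p = 1.2e-20). Its credibility intervals, 50.3 to 57.9 TPM and 75.3 to 84.8 TPM, did not overlap. Hes1 went the other way and was 1.38-fold lower in replicate 2 (95% interval 1.19 to 1.62, exact binomial test, adjusted p = 0.000222), but its credibility intervals, 12.9 to 16.1 TPM and 10.0 to 13.3 TPM, overlapped. These 2 Notch targets therefore lay on opposite sides in the same pair of libraries. Notch2 was 1.18-fold lower (95% interval 1.11 to 1.24, adjusted p = 3.53e-07 by the same exact test), and Notch3 was 1.17-fold higher (1.07 to 1.27, adjusted p = 0.00129). The credibility intervals of both receptors were apart. By intervals alone, Hes5 and Notch3 were higher and Notch2 was lower, or 2 and 1 of the 10 genes, where 22.6% of all genes tested were apart, 16.1% higher and 6.5% lower.

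For the 6 uncalled genes the intervals of the ratio, replicate 2 over replicate 1, bound the difference. Hes6 had a ratio of 0.999 (95% interval 0.946 to 1.06), Jag2 0.996 (0.887 to 1.12) and Notch1 1.02 (0.976 to 1.07). Dll1 had 1.12 (1.0002 to 1.26, exact binomial test, adjusted p = 0.118) and Dll3 also 1.12 (1.004 to 1.25, adjusted p = 0.105). Jag1 had 0.913 (0.842 to 0.989, exact binomial test, adjusted p = 0.0700). The intervals of Dll1, Dll3 and Jag1 left out equality before adjustment over all genes, with exact p = 0.0496, 0.0429 and 0.0257. With the gene total, no ratio of the 10 genes reached 1.5-fold, though the Hes5 interval extended to 1.54. With the spike-in total the Hes5 log2 ratio was 0.64, above 1.5-fold.

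The calls of the higher genes depended on the scaling. With TMM factors Dll3 and Dll1 were also called higher (exact binomial test, adjusted p = 0.0398 and 0.0476). With the spike-in total Notch1, Dll3, Dll1 and Hes6 joined Hes5 and Notch3, making 6 higher. With DESeq2 size factors the 2 higher genes stayed 2. Among all 17664 genes tested, 3627 were higher with TMM factors, 6163 with the spike-in total and 3402 with DESeq2 size factors. Hes1 and Notch2 were the 2 lower genes under all 4 scalings. Of the calls over all genes, 45.9% were higher in replicate 2 under the gene total. This share was 58.7% under TMM, 55.8% under DESeq2 and 80.8% under spike-in scaling, which raised every log2 ratio by 0.12.

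**Figure D3:**
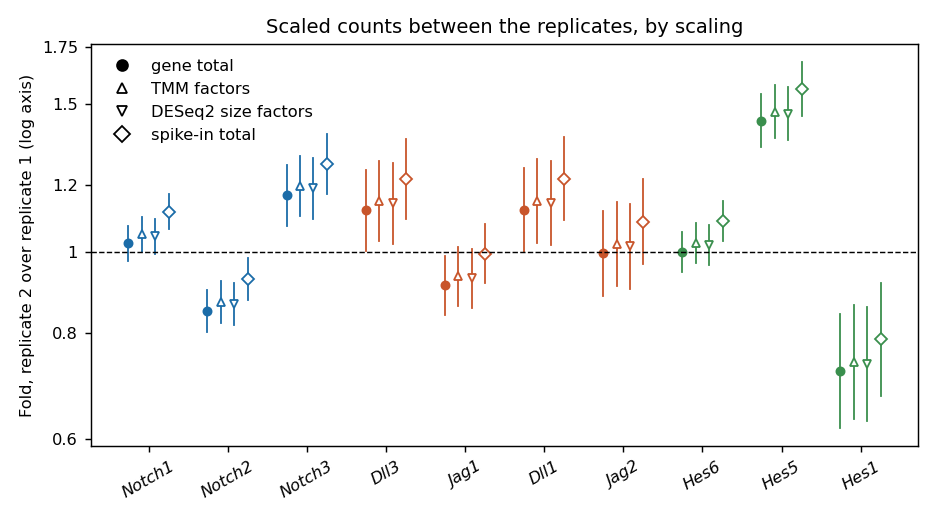
Ratio of scaled counts, replicate 2 over replicate 1, on a log axis for 4 scalings, with 95% binomial intervals that cover counting error only. Hes5 and Notch3 lie above the dashed line of equality and Hes1 and Notch2 below it under all 4 scalings.

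Some cell type markers differed between the libraries as well. Their numbers are read against all genes tested, of which 15.6% were higher and 18.3% lower under the gene total. Of these 17664 genes, 3627 were higher under TMM, 3402 under DESeq2 and 6163 under spike-in scaling. Markers of the choroid plexus, the epithelium that makes cerebrospinal fluid, summed to 1902 TPM in replicate 1 and 1151 TPM in replicate 2, with 4 of 5 detected, 3 lower and 1 higher. The 5 meningeal and fibroblast markers were all lower in replicate 2 (730.4 and 605.2 TPM summed), and all 5 red cell markers were higher (11819 and 14037 TPM). Of the 4 oligodendrocyte lineage markers 3 were higher (107.2 and 136.0 TPM), or 4 with the spike-in total. The 7 radial glia and progenitor markers, the cells in which Hes1 and Hes5 are best known, summed to 2474 and 2464 TPM, with 2 higher and 3 lower, or 2 and 2 with TMM factors or DESeq2 size factors. The 6 markers of young neurons summed to 3174 and 3325 TPM, with 0 higher and 1 lower, or 1 and 1 with TMM factors or DESeq2 size factors. Under spike-in scaling the progenitor markers were 4 higher and 0 lower, and all 6 young neuron markers were higher. Of the 6 endothelial markers 2 were lower (165.9 and 162.0 TPM), as with DESeq2 size factors, but 1 with TMM factors and 0 with the spike-in total. Of the 4 microglial markers 1 was lower (86.6 and 87.6 TPM), with 1 also higher with the spike-in total. Of the 8 hindbrain markers 6 were lower (412.0 and 385.5 TPM), or 3 under each of the other scalings. Of the 6 forebrain markers (10.5 and 15.8 TPM) 2 could be tested, Lhx2 and Six3, and both were higher in replicate 2 under all 4 scalings. Lhx2 was 1.54-fold higher (exact binomial test, adjusted p = 4.88e-11), and Six3, also named after its values were seen, had 1 and 19 counts. The part of these differences in the Hes and receptor differences was not tested.

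In each of the 10 genes the most abundant transcript was protein coding. The deposited tables list 36 transcripts for them, 26 of which had counts. Notch2, Notch3 and Jag2 had a single transcript each. The main transcript held 95.9% ± 4.38 of the gene's TPM for Jag1 (Jag1-201), 91.9% ± 4.21 for Hes1 (Hes1-201), 89.5% ± 2.17 for Notch1 (Notch1-201) and 89.2% ± 0.898 for Hes5 (Hes5-201). A short noncoding transcript of Hes5, Hes5-202 of 350 nt, held the other 10.8% of TPM but 2.54% of the expected counts. The coding transcript Hes5-201 had 48.7 and 73.7 TPM in replicates 1 and 2, and Hes5-202 had 6.32 and 8.38 TPM.

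The Delta ligands and Hes6 carried more retained-intron transcript, that is, RNA in which an intron has not been spliced out. Dll3-202, a retained-intron transcript of 665 nt, held 28.1% and 24.0% of the Dll3 TPM and Dll3-201 the main part, 72.4% ± 3.58. Dll1-204, of the same type, held 14.4% and 24.1% of the Dll1 TPM, beside 73.2% ± 3.29 in Dll1-201. A count in a short transcript weighs more in TPM, and by expected counts the shares were 8.23% and 6.69% for Dll3-202 and 3.36% and 5.91% for Dll1-204. Only 51.9 and 45.5 counts stood behind Dll3-202, and 19.6 and 37.3 behind Dll1-204. Hes6-202 rested on 335.1 and 424.9 counts and held 10.8% and 14.2% of the Hes6 TPM. By expected counts its share was 12.6% and 16.6%, above those of Dll3-202 and Dll1-204. Hes6-201 held 84.6% ± 3.52 of it, at 86.0 and 85.3 TPM.

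Protein-coding transcripts together held 75.3% ± 3.61 of the TPM of Dll1 and 72.4% ± 3.58 of that of Dll3. Both shares were under 80%, as were those of 21.4% of the 11011 protein-coding genes averaging 5 TPM or more, whose median was 98.2%. The other 8 genes lay at 84.6% or above.

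**Figure D4:**
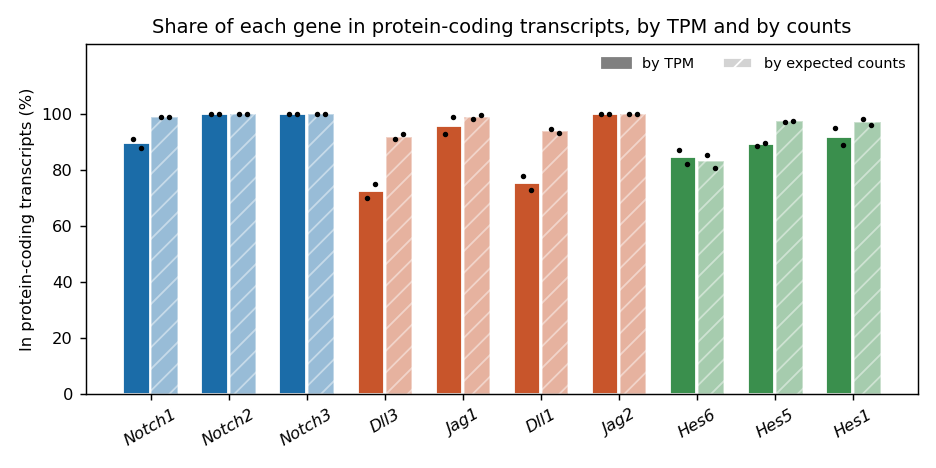
Percent of each gene in protein-coding transcripts, by TPM (solid bars) and by expected counts (hatched bars), as means over 2 replicates with each replicate as a point. Dll3 and Dll1 are lowest by TPM, at 72.4% and 75.3%, and stand at 91.9% and 94.0% by counts. Hes6 is lowest by counts, at 83.1%.

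Exons of 4 of the genes overlap those of a gene on the opposite strand. Hes5 shares 433 exonic bases with Gm20421, Dll1 867 with A930024N18Rik, Notch3 488 with Gm17276, and Notch1 1068 with 0610009E02Rik and 414 with Gm13568. These 4 genes had fractional expected counts, and the sums with their partners were whole within 0.015 in both libraries: 1285 and 1770 for Hes5, 652 and 729 for Dll1, 3508 and 3457 for Notch1, and 1116 and 1251 for Notch3. The 6 genes with no such partner had whole counts. The strand setting is not given in the sources used here, and reads in the shared bases cannot be told apart by gene. Hes5, Notch1 and Notch3 held 96.9% to 97.9% of their sums, and Dll1 held 89.7% and 86.6%. With the partner's counts added, Dll1 was called higher in replicate 2 (exact binomial test, adjusted p = 0.0205), and the calls of the other 9 genes were the same.

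Other genes of the pathway were read from a list of 67 in 12 roles, of which 61 reached 1 TPM in both replicates. By the binomial test 14 were higher and 8 lower in replicate 2 among 66 tested, beside 15.6% and 18.3% of all genes tested. These counts became 18 and 6 with TMM factors, 18 and 7 with DESeq2 size factors, and 29 and 4 with the spike-in total. The calls among all 17664 genes tested moved as well. With TMM factors 6182 were called and 3627 of them were higher. These numbers were 6096 and 3402 with DESeq2 size factors, and 7629 and 6163 with the spike-in total. The median log2 ratio of TPM + 1 over the list was 0.09.

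Notch4, the fourth receptor, known from endothelium, stood at 9.07 ± 0.594 TPM. This was above Notch3 in TPM, but from 387 and 338 expected counts, against 1089.98 and 1224.49 for Notch3. The deposited transcript length averaged 2192 and 1922 nt for Notch4, against 8044 nt for Notch3, so short transcripts weigh in this comparison. Dll4, the endothelial ligand, stood at 3.48 ± 0.552 TPM. Neither Notch4 nor Dll4 was called with the gene total. All 6 endothelial markers were above 1 TPM in both libraries, and their part in the Notch4 and Dll4 levels was not tested. The 7 non-canonical ligands were all detected, with 2 higher and 2 lower. Dner, a transmembrane Notch ligand of neurons, had 237.7 and 256.4 TPM and was higher in replicate 2 (exact binomial test, adjusted p = 0.0287). Mfap2, a microfibril protein, had 149.7 and 132.1 TPM and was lower (exact binomial test, adjusted p = 1.72e-10).

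The genes whose products modify, present or cut Notch and its ligands form small groups. Their calls stand beside 33.9% of all genes tested that were called with the gene total. All 6 fringe and O-glycosylation genes were detected and none was called (2 higher with the spike-in total), led by Rfng at 69.1 ± 0.594 TPM and Poglut1 at 43.0 ± 1.00 TPM. The 4 genes of ligand endocytosis, led by the ubiquitin ligases Mib2 at 36.2 ± 0.0919 TPM and Mib1 at 22.0 ± 0.177 TPM, were also detected and not called. The metalloproteases Adam10 and Adam17, which make the first cut, stood at 44.5 ± 0.212 and 15.1 ± 0.332 TPM and were not called. Of the 7 gamma-secretase genes, which make the second cut, 1 was higher and 1 lower, and the 2 most abundant were Psenen at 87.3 ± 1.51 TPM and Ncstn at 86.8 ± 1.32 TPM, the latter lower in replicate 2 (exact binomial test, adjusted p = 0.00363) but not called with TMM factors or the spike-in total.

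The nuclear complex had 7 of 7 genes detected, with 2 lower, or 1 under each of the other scalings. Snw1, a coactivator, stood at 76.0 ± 1.66 TPM and Rbpj, the DNA-binding partner of all Notch receptors, at 30.6 ± 1.82 TPM, neither called (both higher with the spike-in total). Of the 9 corepressor genes 1 was higher and 2 were lower. Aes, a short Groucho/TLE-related protein, stood at 363.7 ± 19.6 TPM, the highest of the list, and was called higher under the 3 other scalings but not with the gene total. Bend6, which binds Rbpj and restrains its activity, had 44.2 and 61.1 TPM and was higher in replicate 2 (exact binomial test, adjusted p = 4.99e-17).

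Of the 9 genes of inhibition and turnover 3 were higher and 0 lower. These counts became 5 and 0 with TMM factors or DESeq2 size factors and 7 and 0 with the spike-in total. Among all 17664 genes tested, 2751 were higher with the gene total and 6163 with the spike-in total. Dtx3, a Deltex ubiquitin ligase, stood at 181.1 ± 7.30 TPM and was called higher with the spike-in total only, and Dtx1 had 41.9 and 51.6 TPM and was higher (exact binomial test, adjusted p = 3.41e-07). Nrarp, a Notch target that feeds back on the pathway, had 11.8 and 15.7 TPM and was higher too (exact binomial test, adjusted p = 0.000141); it was chosen after its values were seen.

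Of the 6 related Hes and Hey genes 3 were detected, and of 5 tested 2 were higher and 1 was lower under all 4 scalings. Hey1, a target of Notch like Hes1, had 21.1 and 25.4 TPM and was higher in replicate 2 (exact binomial test, adjusted p = 0.000330). Heyl, known from vascular mural cells, had 6.45 and 5.46 TPM and was lower (exact binomial test, adjusted p = 0.000923). The mural cell markers given above had 1 gene higher and 1 lower, or 2 and 0 with the spike-in total, and their part in the Heyl difference was not tested. Hes3, named after its values were seen, was the other higher gene, from 7 to 33 counts (0.19 and 0.98 TPM). Hes2 had no count in either library and was the lowest of the role. Hes1, at 12.8 ± 2.09 TPM, therefore lay between Hey1 and Heyl.

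Proneural and neurogenic genes, a list that includes genes repressed by Hes1 and Hes5, had 5 calls, all in 1 direction. Of 8 tested genes 5 were higher in replicate 2 and 0 lower, with the same 5 under TMM and DESeq2 scaling and 6 with the spike-in total. By comparison, 15.6% of all genes tested were higher and 18.3% lower under the gene total. Higher genes among all 17664 numbered 3627 under TMM, 3402 under DESeq2 and 6163 under spike-in scaling. The median log2 ratio of TPM + 1 was 0.47 over the 8 genes. The 2 most abundant, Neurod1 at 29.4 ± 1.94 TPM and Atoh1 at 10.7 ± 0.170 TPM, were not called, except Neurod1 with the spike-in total. Ptf1a, with 0.40 and 0.62 TPM, was below 1 TPM in both libraries. Neurog1, Neurog2, Insm1 and Neurod4, named after their values were seen, were among the higher genes. Neurog2 had 2.97 and 5.15 TPM (exact binomial test, adjusted p = 4.76e-05). Insm1 had 2.04 and 3.33 TPM and Neurod4 0.97 and 1.67 TPM. Neurog1 had no count in replicate 1 and 66 counts in replicate 2, which is at least 22.9-fold higher against the floor of 3 counts in that library. Hes5 and Neurog2 were thus higher in the same library, and Hes1 was lower there. In that library 3 of 4 oligodendrocyte lineage and 5 of 5 red cell markers were higher, and 3 of 5 choroid plexus and 5 of 5 meningeal markers were lower. Both tested forebrain markers, of 6 listed, were higher there, Six3 with only 1 and 19 counts. With the gene total 6 of 8 hindbrain markers were lower, or 3 under each of the other scalings. The part of these markers in the proneural difference was not tested.

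**Figure D5:**
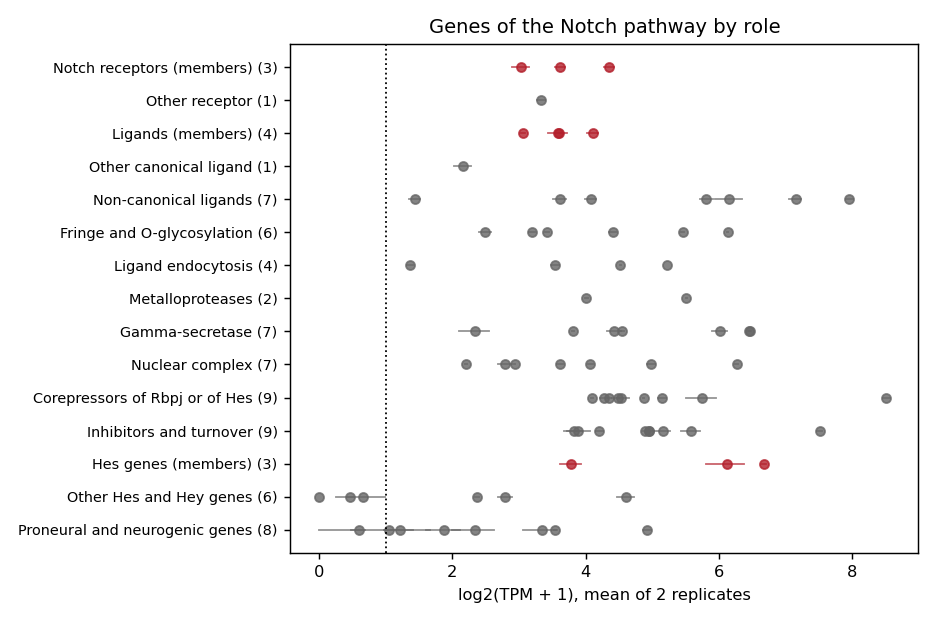
Level of each gene as log2(TPM + 1), with points for the mean of 2 replicates, bars spanning the replicates and the 10 genes in red, by role with the number of genes in brackets. The dotted line is 1 TPM, and genes below it lie only among the other Hes and Hey genes and the proneural genes.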

How the data were processed

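Deposited values were made separately for each library; per the labels, the assembly is mm10, and per the file headers the annotation is M4. For the aligner, quantifier and strand handling, details were not given in the sources used here. Expected counts deposited by the authors, estimates that need not be whole, were rounded for the tests. The authors' TPM values are scaled by length over all 69691 features, 96 spike-ins included, and the deposited FPKM values by length and reads. The deposited credibility bounds, used as score values, surround the posterior mean, and their level is not given. The deposited percent of each gene per transcript was replaced by shares recomputed from TPM. Symbols (42462 of 43346 genes), coordinates and transcript names came from GENCODE M21 (GRCm38, the same assembly), whose gene models can differ from M4.

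Detection meant at least 1 TPM in both replicates, and log2 ratios used a pseudocount of 1. The binomial test used a threshold of 0.05. It was tried on simulated counts that held counting noise, as the test assumes, and a set of changed genes. That trial cannot tell how the test behaves under further variation between libraries. The 10 genes and all lists were chosen with earlier results of these data known. Named pathway genes were the 2 highest of each role and its lowest if undetected; named transcripts were the highest, those with at least 10% of the gene and those whose share moved by more than 10 points. Alternatives covered TMM (edgeR 4.0.16), DESeq2 1.42.0 size factors, spike-in scaling, other filters, posterior means, FPKM and each replicate alone. R 4.3.3, Python 3.11.15, scipy 1.17.1 and pandas 2.3.3 were used. The values of 1 gene of the pathway list are not reported here.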

Additional observations from a re-analysis of the deposited data

How the results depend on the processing

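With 1 group of 2 samples, differences between the libraries have no replicate check, and low transcripts rest on few counts. All 10 genes stayed detected with replicate 1 or 2 left out, and the pathway list had 61 to 63 genes detected. With a replicate left out, the share of Hes6 ran from 52.6% to 58.7%, of Dll3 from 34.8% to 36.1% and of Notch1 from 50.1% to 52.6%. The Notch1 share was 56.9% by posterior mean TPM and 48.6% by its most abundant transcript only, and the Dll3 share was 31.1% by the latter, which was added after the data were seen. The 2 genes higher in replicate 2 became 4 with TMM factors, 6 with the spike-in total and 0 at 1.5-fold or more. With opposite-strand counts added, an alternative chosen after the data were seen, they became 3. Among all 17664 genes tested, the 2751 higher genes became 3627 with TMM factors, 6163 with the spike-in total and 256 at 1.5-fold or more. The 2 lower genes became 0 at 1.5-fold or more and 1 by credibility intervals. The Hes6 log2 ratio turned to 0.12 with the spike-in total. No paired analysis was possible because the samples form 1 group.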
